A study of Homo sapiens with 24 samples.

Results

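The genes described here are the 3 NR4A nuclear receptors, NR4A1, NR4A2 and NR4A3, and 7 immediate-early genes, FOS, FOSB, EGR1, EGR2, EGR3, IER2 and DUSP1. Immediate-early genes are transcribed within minutes of a growth factor, stress or calcium signal, from factors already present in the cell, and their messages are short-lived. The NR4A receptors belong to the same early programme. They are orphan receptors without a known classical hormone ligand, so their activity follows mainly from how much of them is made. They bind an extended nuclear receptor half-element called the NBRE, while FOS and FOSB join JUN proteins in the AP-1 factor and the EGR proteins are zinc-finger factors. In epithelial and fibroblast-like cells these genes are known as readouts of MAP kinase and cAMP signalling.

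The members were chosen by gene name and by measured values of the same arrays, because NR4A2 had been seen to change in opposite directions in the HCT116 and HT1080 lines. Of the 10 genes, 9 had at least 1 annotated probe and EGR2 had none. They were represented by 14 of the 47323 probes of the table, and the table held 20046 named genes in all. No member was removed by a filter, since no filter on low values was applied.

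The study asked what loss of Rap1, a telomere-binding shelterin subunit encoded by TERF2IP, does to human cell lines. Clones carried a TALEN-made knockout of the gene or were wild type, and total RNA of the clones was hybridised to Illumina expression arrays. HCT116, a colorectal carcinoma line, was represented by 3 clones labelled knockout (10, 21 and 28) and 3 labelled wild type (15, 20 and 23), and HT1080, a fibrosarcoma line, by 2 knockout clones (8 and 21) and 2 wild-type clones (2 and 9), each clone on 2 arrays. ARPE-19, a retinal pigment epithelial line, was represented by 2 knockout clones (25 and 30), 1 wild-type clone (23) and the parental culture, each on 1 array. A clone descends from a single cell, so clones of 1 genotype can differ for reasons other than the edit. The clone was the replicate throughout, and the labels do not say whether its 2 arrays came from separate cultures, so tests between arrays of a clone measure a spread that may be technical.

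All values are log2 values relative to the median of a probe over the arrays of its own line. No source used here states the log's base. It was read as base 2, and another base would scale every difference alike. Because of this centring the table holds no levels. It could therefore not be read from the table whether a probe was above background, whether the lines carried their defining markers, or which line had more of a message. In bulk RNA, fewer cells of a kind and less RNA per cell cannot be told apart.

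TERF2IP, the edited gene, checked the labels. In HT1080 it lay between -1.79 and -1.11 in knockout arrays and between 1.11 and 1.25 in wild-type arrays, a difference of -2.61 ± 0.20 (SE, n = 2 and 2 clones, limma adjusted p = 0.108). In HCT116 it lay between -0.77 and 0.05 in arrays labelled knockout and between -0.28 and 1.45 in arrays labelled wild type (-0.63 ± 0.34, n = 3 and 3 clones, limma adjusted p = 0.609). Wild-type clone 23, at 1.45 and 1.21, stood well above the clones labelled knockout. Clone 15, at 0.12 and 0.07, lay just above knockout clone 28, at 0.05 and 0.01, and clone 20, at -0.28 and -0.26, lay among the knockout clones. In ARPE-19 the difference was 0.020 ± 0.12 (n = 2 and 2, limma adjusted p = 0.997). Groups are therefore named by their labels, and HCT116 and ARPE-19 directions are those between labelled groups. No source used here gives the place of the probe relative to the edited site.

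Promoter sequences from RefSeq (GRCh38.p14, from 250 bases before to 50 bases after the start site) were held for 8 of the 10 members, in 11 windows, and not for NR4A2 and EGR3. The promoters of EGR1 and FOS are shown because these genes varied most between clones in the arrays described next, and that of NR4A3 because it held matches to the short cAMP-response element TGACG. In EGR1 (chr5:138465229-138465528, plus strand) the capitals mark 2 CArG boxes, the element bound by serum response factor. In FOS (chr14:75278578-75278877, plus strand) and NR4A3 (chr9:99821635-99821934, plus strand) they mark TGACG or its reverse complement.
EGR1: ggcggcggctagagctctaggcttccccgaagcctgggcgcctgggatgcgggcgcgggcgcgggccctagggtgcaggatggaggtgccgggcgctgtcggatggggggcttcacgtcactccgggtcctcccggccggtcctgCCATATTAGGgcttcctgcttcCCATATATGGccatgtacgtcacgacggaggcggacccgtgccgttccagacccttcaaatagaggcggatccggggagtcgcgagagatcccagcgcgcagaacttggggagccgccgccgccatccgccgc
FOS: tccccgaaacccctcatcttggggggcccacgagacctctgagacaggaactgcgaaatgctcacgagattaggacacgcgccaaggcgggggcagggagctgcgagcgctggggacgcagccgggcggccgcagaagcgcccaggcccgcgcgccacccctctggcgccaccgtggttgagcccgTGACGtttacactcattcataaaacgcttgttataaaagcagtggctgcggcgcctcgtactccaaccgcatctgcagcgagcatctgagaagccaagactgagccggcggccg
NR4A3: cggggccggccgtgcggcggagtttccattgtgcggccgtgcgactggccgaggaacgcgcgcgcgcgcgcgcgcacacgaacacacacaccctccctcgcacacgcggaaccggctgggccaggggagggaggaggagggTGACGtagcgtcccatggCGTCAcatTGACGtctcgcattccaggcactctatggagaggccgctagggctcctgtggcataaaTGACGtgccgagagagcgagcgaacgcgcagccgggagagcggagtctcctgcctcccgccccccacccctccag

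Letters were searched on both strands. TGACG was present in 24.6% of 35116 promoter windows of the same length and lies inside the full element TGACGTCA, which was present in 1.85%. NR4A3 held 4 copies of TGACG, at -109, -91, -83 and -25 from the start site (first base of each). DUSP1 also held 4, of which 2 overlap in the single TGACGTCA found among the members, at -125 to -118. EGR1 held 2, and FOS, FOSB and IER2 held 1 each. EGR2 held 2 in 1 of its 3 windows, together with a CArG box, and neither window of NR4A1 held any. The CArG box was present in 1.29% of all windows, and the 2 in EGR1 lie at -105 to -96 and -83 to -74. The NBRE, AAAGGTCA, was present in 1.22% of all windows and in none of the 11 windows searched, which do not include NR4A2. These matches describe letters and were not tested for binding.

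NR4A2, a receptor best known for its role in midbrain dopamine neurons, had the largest differences between labelled genotypes among the members, the contrasts it was chosen for. It was higher in all HCT116 clones labelled knockout and lower in all HT1080 knockout clones, by close to the same amount on the log2 scale, and flat in ARPE-19. It was measured by 2 probes, which read the same RNA and are not independent. Probe 1 gave 0.62 and 0.98 in HCT116 knockout clone 10, 0.71 and 0.31 in clone 21 and 0.56 in both arrays of clone 28, against -0.49 and -0.55 in wild-type clone 15, -0.34 and -0.52 in clone 20 and -0.32 and -0.31 in clone 23. Probe 2 gave 0.54 and 0.48, 0.49 and 0.21, and 0.40 and 0.35 in the same knockout clones, against -0.52 and -0.70, -0.51 and -0.37, and -0.38 and -0.21 in the same wild-type clones. All 6 arrays labelled knockout lay above 0 and all 6 arrays labelled wild type below it, on both probes.

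The HCT116 means of probe 1 were 0.62 ± 0.15 in clones labelled knockout and -0.42 ± 0.10 in clones labelled wild type (SD, n = 3 each), a difference of 1.05 ± 0.10 (SE) or 2.07-fold. Probe 2 averaged 0.41 ± 0.09 in knockout clones and -0.45 ± 0.16 in wild-type clones (SD, n = 3 each), a difference of 0.86 ± 0.10 or 1.82-fold. Since NR4A2 was chosen for these contrasts, its differences are a description and carry no test. Without wild-type clones 15 and 20, whose TERF2IP was close to that of knockout clones, the differences from clone 23 alone were 0.94 and 0.71.

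In HT1080 the order was turned round. Probe 1 of NR4A2 gave -0.83 and -0.56 in knockout clone 8 and -0.26 and -0.50 in knockout clone 21, against 0.26 and 0.33 in wild-type clone 2 and 0.30 and 0.58 for wild-type clone 9. Probe 2 gave -0.59 and -0.57 and then -0.26 and -0.35 in the same knockout clones, against 0.26 and 0.54 and then 0.41 and 0.46 in the same wild-type clones. All 4 knockout arrays lay below all 4 wild-type arrays on both probes. The means of probe 1 were -0.54 ± 0.22 in knockout clones and 0.36 ± 0.11 in wild-type clones (SD, n = 2 each), a difference of -0.90 ± 0.13 (SE), which is 1.87-fold lower. Probe 2 averaged -0.44 ± 0.20 in knockout clones and 0.42 ± 0.02 in wild-type clones, a difference of -0.86 ± 0.12 or 1.82-fold lower. In the same line 9 of 10 proliferation genes had differences above 0, none past the threshold, against 8562 of 20046 over all genes. Their clone means were 0.06 and 0.08 in knockout clones 8 and 21, against -0.42 and 0.04 in wild-type clones 2 and 9. The gap in the list mean thus rested on clone 2. Gene by gene, 5 of the 10 still had both knockout clones above both wild-type clones, against 2848 of 20046 over all genes. Without wild-type clone 2 the NR4A2 differences were -0.98 and -0.88. In HCT116, 3 of the 10 proliferation genes had differences above 0 and 7 below, none past the threshold. Over all genes, 13041 of 20046 lay above 0 there. The HCT116 clone means of the list overlapped between the labelled genotypes. The part of growth state in NR4A2 was not tested in either line.

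**Figure D1:**
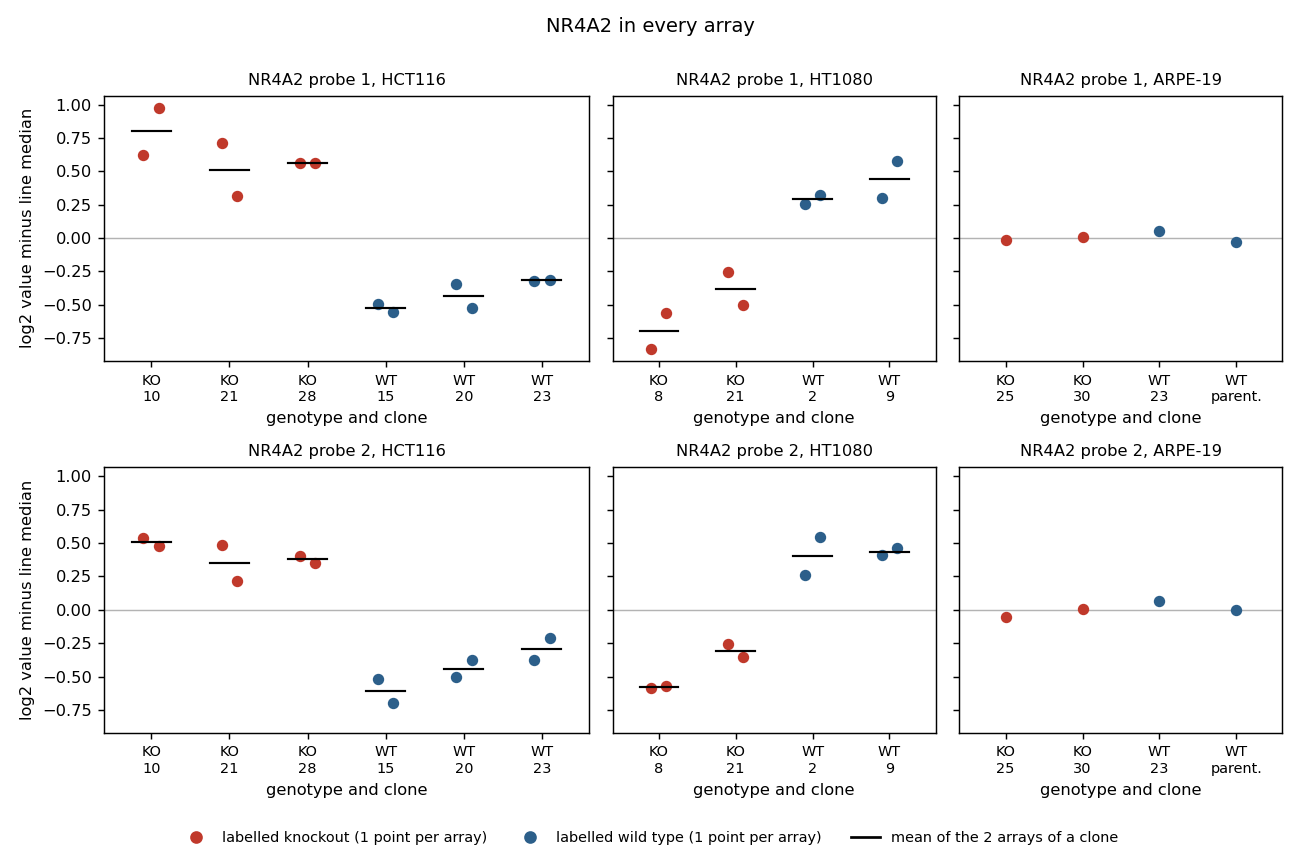
NR4A2 in every array, as log2 value minus the line median (y axis), by genotype and clone (x axis), with probe 1 in the upper and probe 2 in the lower panels. Each point is 1 array and each line the mean of the 2 arrays of a clone. Knockout points lie above wild-type points in HCT116 and below them in HT1080, and the 4 ARPE-19 points lie between -0.06 and 0.07.

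The change in HCT116 minus the change in HT1080 was 1.95 ± 0.17 for probe 1 and 1.72 ± 0.16 for probe 2 (SE, n = 10 clones). Over all probes, 14 of 47323 (0.0296%) passed an adjusted p of 0.05 for this difference between lines, and the 2 NR4A2 probes were among them, which the choice of the gene had already used. The other member probes did not pass, also at an unadjusted p of 0.05. Their differences between lines lay between -0.06 for DUSP1 and 0.38 ± 0.19 for FOSB.

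ARPE-19 was not part of the choice, so NR4A2 could be tested there between the labelled groups. TERF2IP did not separate these groups (0.020 ± 0.12, SE), so the arrays do not show that the labelled knockouts had lost its message. Probe 1 gave -0.01 and 0.01 in knockout clones 25 and 30, against 0.06 in wild-type clone 23 and -0.03 in the parental culture. The difference was -0.014 ± 0.11 (SE, limma adjusted p = 0.997 over 47319 probes), and probe 2 gave -0.057 ± 0.11 (limma adjusted p = 0.982). The groups overlapped on both probes. Whether NR4A2 was detected at all in ARPE-19 is not known from centred values. With 4 arrays, changes well above the standard error could also be missed. FOSB, at 0.64 ± 0.19 in the same fit, had a limma adjusted p of 0.5.

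Among clones of the same genotype NR4A2 varied less than between genotypes, in the values that served the choice, and no test is given. Clone means of probe 1 spanned 0.29 among HCT116 knockout clones and 0.21 among HCT116 wild-type clones, and 0.31 among HT1080 knockout clones and 0.15 among HT1080 wild-type clones. Both probes put the clones in the same order. In HCT116 this ran downward from knockout clone 10, at 0.80 on probe 1, through clones 28 and 21 to wild-type clones 23 and 20 and to wild-type clone 15, at -0.52. In HT1080 it ran upward from knockout clone 8, at -0.69, through knockout clone 21 and wild-type clone 2 to wild-type clone 9, at 0.44. Neighbours of the same genotype in these orders were not compared by a test.

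NR4A1, also called Nur77 and known from thymocyte selection and apoptosis, showed smaller values. Its probe 1 lay between -0.07 and 0.21 in HCT116 knockout arrays and between -0.21 and 0.20 in wild-type arrays, and the difference was 0.08 ± 0.08. In HT1080 probe 1 gave -0.14 and -0.13 in knockout clone 8 and 0.09 and -0.14 in knockout clone 21, against -0.07 and 0.11 in wild-type clone 2 and 0.07 and 0.14 for wild-type clone 9. The clone means did not overlap (-0.14 ± 0.09, SE) but the arrays did. Probe 2 differed by 0.03 ± 0.07 in HCT116 and -0.02 ± 0.09 in HT1080, so its values did not separate the genotypes in either line.

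NR4A3, also called NOR1, had 3 probes that did not move together. In HCT116 their differences were 0.07 ± 0.10, 0.18 ± 0.08 and 0.02 ± 0.08, and the clone means of probe 2 alone did not overlap, with 0.22, 0.01 and 0.04 in knockout clones 10, 21 and 28 against -0.15, -0.07 and -0.05 in wild-type clones 15, 20 and 23. In HT1080 the differences were 0.06 ± 0.09, 0.00 ± 0.09 and 0.01 ± 0.10, all below their standard errors. In ARPE-19 probe 1 was 0.48 in knockout clone 25 and -0.04 in knockout clone 30, against 0.04 in wild-type clone 23 and -0.08 in the parental culture (0.24 ± 0.16, limma adjusted p = 0.958). The same clone gave -0.25 on probe 2, so the NR4A3 probes disagreed in sign in clone 25.

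**Figure D2:**
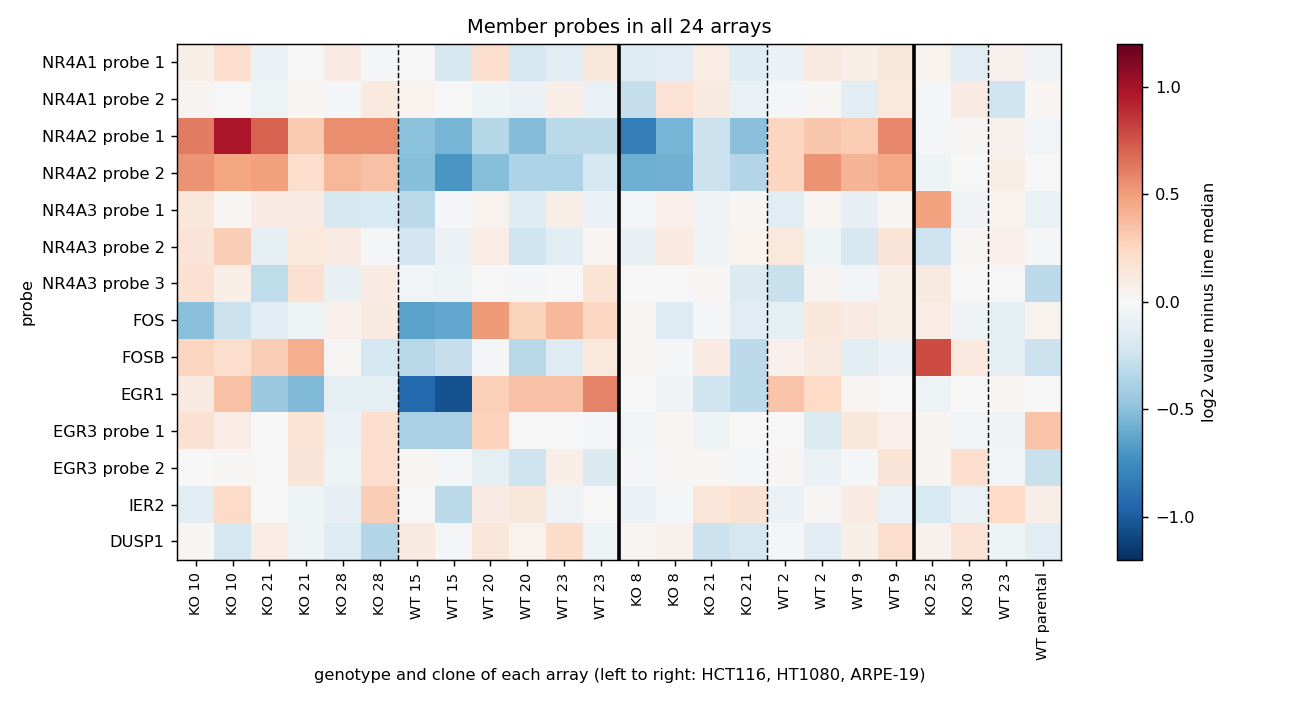
Log2 value minus line median (colour) of the 14 member probes (rows) in the 24 arrays (columns, by genotype and clone). Heavy lines part the 3 cell lines and dashed lines part knockout from wild-type arrays. NR4A2 shows blocks of 1 colour by genotype, while EGR1 and FOS change colour between clones of a genotype.

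EGR1 and FOS differed between clones of the same genotype in HCT116, and not between the labelled genotypes beyond that spread. EGR1 encodes a zinc-finger factor induced through the MAP kinase cascade. Its arrays gave 0.10 and 0.36 in knockout clone 10, -0.45 and -0.53 in knockout clone 21 and -0.10 and -0.11 in knockout clone 28, against -0.93 and -1.04 in wild-type clone 15, 0.29 and 0.35 in wild-type clone 20 and 0.35 and 0.60 for wild-type clone 23. Clone 15 was the lowest and clone 23 the highest, so both ends of the range were labelled wild type and the knockout clones lay between them. The clone means spanned 0.72 among knockout clones and 1.46 among wild-type clones (limma F test over clones within a genotype, adjusted p = 4.68e-07). Between genotypes the means were -0.12 ± 0.36 in knockout clones and -0.06 ± 0.80 in wild-type clones (SD, n = 3 each), a difference of -0.06 ± 0.33 (SE). The sign of this difference depended on single clones, since it was 0.12 with knockout clone 21 left out, and -0.52, 0.13 and 0.21 with wild-type clones 15, 20 and 23 left out in turn. Against wild-type clone 23 alone it was -0.59 for EGR1 and -0.45 for FOS.

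FOS, the best-known AP-1 subunit, gave -0.51 and -0.26 in knockout clone 10, -0.14 and -0.06 in knockout clone 21 and 0.06 and 0.11 in knockout clone 28, against -0.64 and -0.63 in wild-type clone 15, 0.51 and 0.26 in wild-type clone 20 and 0.39 and 0.25 for wild-type clone 23. As for EGR1, wild-type clone 15 was lowest and the other two wild-type clones were highest. The clone means spanned 0.47 among knockout clones and 1.02 among wild-type clones (limma F test, adjusted p = 3.84e-05), and the genotypes differed by -0.16 ± 0.24 (SE). Among knockout clones FOS and EGR1 were ordered differently, since clone 10 had the lowest FOS mean, -0.38, and the highest EGR1 mean, 0.23.

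Over the array, 4981 of 47323 probes (10.5%) passed the same F test in HCT116, and EGR1 and FOS were the 2 of 14 member probes that did. This share lies near the background, so the members as a group did not stand apart in it. Leaving out wild-type clone 15 left EGR1 past the threshold (adjusted p = 0.00583) and took FOS out (adjusted p = 0.115). The other clones left out in turn gave adjusted p from 6.78e-07 to 3.52e-06 for EGR1 and from 4.78e-05 to 0.000166 for FOS. With clones 15 and 20 both left out, which leaves the knockout clones to be compared, the adjusted p was 0.00576 for EGR1 and 0.0684 for FOS.

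EGR3 and FOSB came next in spread. EGR3, a family member of EGR1 studied in T cells and muscle spindles, gave -0.39 in both arrays of wild-type clone 15 on probe 1, below every other HCT116 array (from -0.07 to 0.27), with an adjusted p of 0.0654 in the limma F test. It passed where each array was first centred on its own median (0.0321), where knockout clone 21 or 28 was left out (0.0486 and 0.0368), and over genes instead of probes (0.0407). Without clone 15 its adjusted p was 0.806. Probe 2 of EGR3 did not put clone 15 low, with 0.03 and -0.02 in its arrays (limma F test, adjusted p = 0.788). FOSB, an AP-1 subunit known from long-lasting responses in neurons, gave 0.26 and 0.21 in knockout clone 10, 0.30 and 0.44 in knockout clone 21 and 0.02 and -0.21 in knockout clone 28, against -0.33 and -0.28 in wild-type clone 15, -0.02 and -0.34 in wild-type clone 20 and -0.15 and 0.13 for wild-type clone 23. Its arrays overlapped between genotypes, which differed by 0.33 ± 0.13 (SE). Its adjusted p in the limma F test was 0.0832, and 0.0496 without wild-type clone 20.

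**Figure D3:**
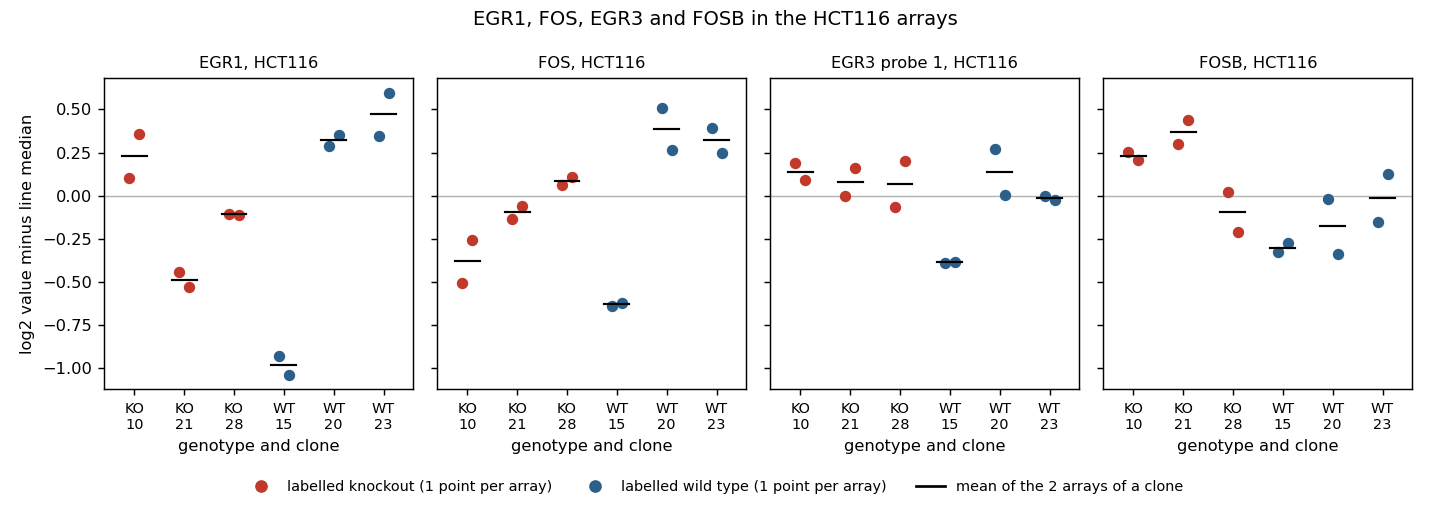
EGR1, FOS, EGR3 probe 1 and FOSB in the 12 HCT116 arrays, as log2 value minus line median (y axis), by genotype and clone (x axis). Points are arrays and lines the mean of a clone. The mean of wild-type clone 15 lies lowest in all 4 panels, at -0.99 for EGR1, while the 3 knockout clones lie between the wild-type clones for EGR1 and FOS.

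Wild-type clone 15 also stood at 1 end in the proliferation list of 10 genes, with a mean of 0.21 against -0.12 to 0.06 in the knockout clones and -0.09 and 0.03 in wild-type clones 20 and 23. In the epithelial list of 7 genes clone 15 had a mean of 0.14, within the range of the knockout clones (-0.18 to 0.27), and in the mesenchymal list of 7 genes -0.11, also within theirs (-0.14 to 0.02). Wild-type clone 20 stood apart in these lists, at -0.41 for epithelial and 0.50 for mesenchymal genes. The part of growth state or cell state in the EGR1 and FOS values was not tested.

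In HT1080 EGR1 gave 0.01 and -0.05 in knockout clone 8 and -0.23 and -0.31 in knockout clone 21, against 0.35 and 0.23 in wild-type clone 2 and 0.03 and -0.01 for wild-type clone 9. Its clone means did not overlap between genotypes (-0.30 ± 0.14, SE), with knockout clone 8 at -0.02 and wild-type clone 9 at 0.01 almost touching. Leaving out knockout clone 8 or 21 gave a difference of -0.42 or -0.17, and leaving out wild-type clone 2 or 9 gave -0.16 or -0.44. Within genotypes the clones spanned 0.25 among knockouts and 0.28 among wild types (limma F test, adjusted p = 0.0877, and 0.0433 over genes instead of probes). In that line 4138 of 47323 probes (8.74%) passed the F test and 0 of 14 member probes did, 2 of them having an unadjusted p under 0.05, EGR1 and DUSP1. FOS lay between -0.15 and 0.03 in knockout arrays and between -0.11 and 0.13 in wild-type arrays (-0.12 ± 0.09).

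IER2, a nuclear protein induced early by serum, lay between -0.12 and 0.29 in HCT116 knockout arrays and between -0.31 and 0.14 in wild-type arrays (0.06 ± 0.09, SE). In HT1080 it gave 0.14 and 0.18 in knockout clone 21, while all other arrays lay between -0.08 and 0.10 (0.07 ± 0.11). The genotypes overlapped in both lines. DUSP1, a phosphatase that switches MAP kinases off, gave clone means of -0.10, 0.02 and -0.25 in HCT116 knockout clones 10, 21 and 28, against 0.05, 0.09 and 0.08 in wild-type clones 15, 20 and 23, so the clone means did not overlap (-0.19 ± 0.09). In HT1080 it gave 0.04 and -0.23 in knockout clones 8 and 21, against -0.08 and 0.14 in wild-type clones 2 and 9, which overlapped (-0.13 ± 0.13).

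**Figure D4:**
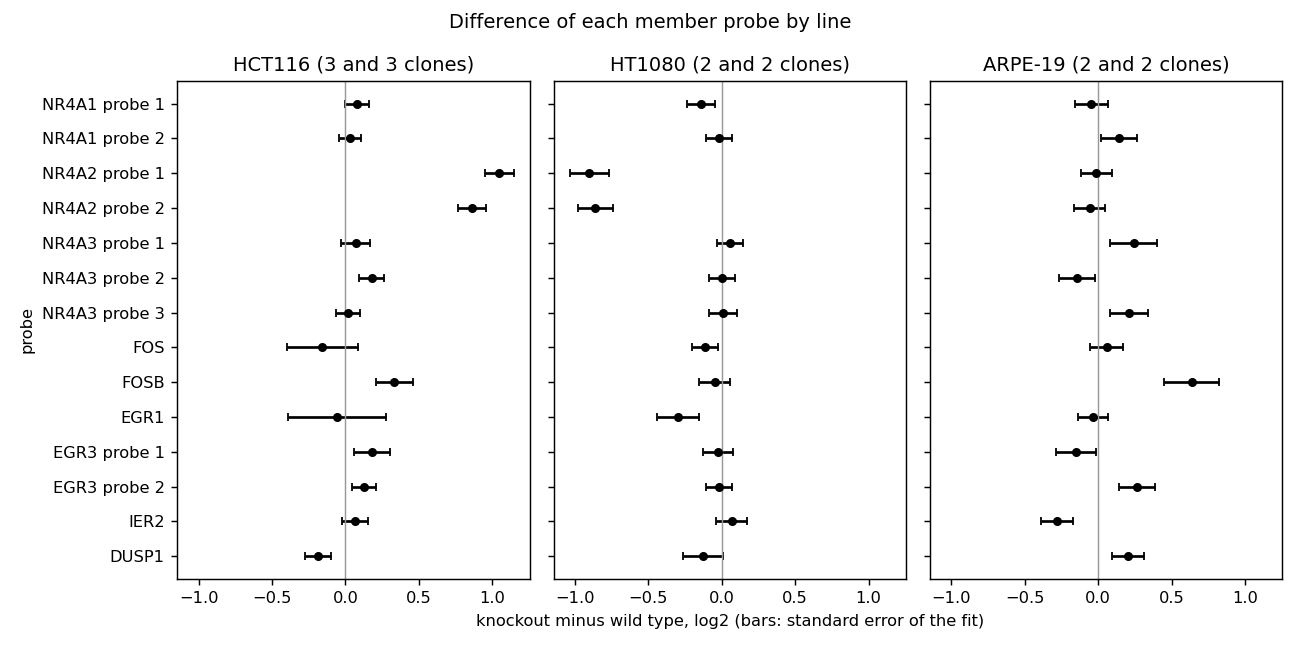
Knockout minus wild type on the log2 scale (x axis) for the 14 member probes (y axis) in each line, with bars for the standard error of the fit. The 2 NR4A2 probes stand at 1.05 and 0.86 in HCT116 and at -0.90 and -0.86 in HT1080, and all other probes lie between -0.30 and 0.33 in these 2 lines.

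Across the members, 11 of the 14 member probes had a difference above 0 and 3 below it in HCT116, while 4 lay above and 10 below in HT1080. The median over all probes was 0.06 in HCT116 and -0.04 in HT1080. Over all genes, 13041 of 20046 lay above 0 in HCT116 and 11484 of 20046 below 0 in HT1080. In HCT116, 4 member probes had all knockout clones above all wild-type clones (NR4A2 on both probes, NR4A3 probe 2 and EGR3 probe 2), as had 13.1% of all probes, and DUSP1 had them all below, as had 2.58%. In HT1080, NR4A3 probe 1 had both knockout clones above, as had 11.7% of all probes, and 5 member probes had them below (NR4A2 on both probes, NR4A1 probe 1, FOS and EGR1), as had 25.3%. At an adjusted p of 0.05, 15 of 47323 probes (0.0317%) passed between genotypes in HCT116, the 2 NR4A2 probes among them, and 2 (0.00423%) passed in HT1080, none of a member. In HCT116 no NR4A2 probe passed without wild-type clone 20 or 23 or without knockout clone 10 or 28, and 1 passed without wild-type clone 15. In HT1080 both NR4A2 probes passed with a replicate block and 1 in a fit of both lines together. Nothing is read from these counts, since the contrasts served to choose the genes.

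In ARPE-19, 139 of 47319 probes (0.294%) passed and 0 of 14 member probes did, 2 of them having an unadjusted p under 0.05 with limma, FOSB and IER2. FOSB gave 0.78 in knockout clone 25 and 0.12 in knockout clone 30, against -0.12 in wild-type clone 23 and -0.26 in the parental culture. The arrays did not overlap, and the difference was 0.64 ± 0.19 (SE, limma adjusted p = 0.5). The value rests on clone 25, since the difference was 0.30 without it (adjusted p = 0.959) and 0.97 without knockout clone 30 (adjusted p = 0.0377). Each of these fits has 1 knockout array, which is assumed to vary like the wild-type samples. IER2 gave -0.18 and -0.08 in the knockout clones, against 0.23 in wild-type clone 23 and 0.08 in the parental culture (-0.28 ± 0.11, limma adjusted p = 0.83). EGR1 was flat, between -0.06 and 0.02 in all 4 arrays, and its difference of -0.04 ± 0.10 had a limma adjusted p of 0.993.

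The 2 arrays of a clone were also compared by their number. Over the 10 HCT116 and HT1080 clones, 0 of 47323 probes (0%) passed for the second minus the first array with limma, 3820 having an unadjusted p under 0.05, and no member probe was among these. The median size of the difference between the 2 arrays of a clone ran from 0.07 for IER2 to 0.21 for NR4A2 probe 1.

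The genes whose pattern was most like that of NR4A2 were ranked by Pearson's correlation over the 10 clone means of HCT116 and HT1080, each line centred on its mean. They were LBP (0.96), SELP (0.96), CCR6 (0.96), MIR519D (0.96) and DACH2 (0.95). Their differences were much smaller than that of NR4A2, between 0.22 and 0.28 in HCT116 and between -0.26 and -0.17 in HT1080. Of the members, NR4A1 ranked 539 (0.78), NR4A3 1289 (0.70) and FOSB 2589 (0.60), while EGR1 gave 0.17, FOS -0.07 and DUSP1 -0.31. After the mean of each genotype was taken out within each line, which leaves only differences between clones of a genotype, the leading genes were HUWE1 (0.99), C20orf141 (0.97), PRR20C (0.97), ZNF606 (0.97) and MIR541 (0.97), and NR4A1 ranked 20 (0.93). Each gene was ranked by its largest-variance probe, so NR4A1 probe 2 was not ranked. Within genotypes the clone means of NR4A1 probe 1 spanned 0.08 to 0.18. The median difference between the 2 arrays of a clone was 0.16 for that probe. The correlations describe 10 clones that share 2 parental lines and 1 centring, and the ranking picks the highest of 20046 genes. With genotype means taken out, the 2 clones of an HT1080 genotype mirror each other. The second ranking thus rests on fewer than 10 independent values.

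Other early genes were taken as 4 lists, with each gene represented by its most variable probe in HCT116 and HT1080. Over all genes, 3 of 20046 (0.015%) passed between genotypes in HCT116, 2 (0.00998%) in HT1080 and 60 of 20044 (0.299%) in ARPE-19, and no gene of the 4 lists passed in any line. The AP-1 partners and other early transcription factors had 10 of 15 genes higher and 5 lower in HCT116 (median difference 0.07, against 0.05 over all genes), and 5 higher and 10 lower in HT1080 (median -0.09, against -0.03 over all genes). Of the other early-response genes, 18 of 19 were measured, with 11 higher and 7 lower in HCT116 (median 0.09) and 9 each way in HT1080 (median -0.01). Of all 20046 genes, 13041 were higher in HCT116 and 8562 were higher in HT1080. The 11 MAP kinase feedback inhibitors had medians of 0.02 in HCT116 and -0.11 in HT1080. The 16 measured upstream regulators and partners of 17 had medians of -0.01 and 0.06 in these lines.

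Among the list genes whose clones did not overlap between genotypes, the largest HCT116 differences were those of RGS2, an inhibitor of G-protein signalling (-1.26 ± 0.36, SE), and KLF4, a zinc-finger factor of epithelial differentiation (1.25 ± 0.28). KLF4 gave 1.33, 0.13 and 1.22 in knockout clones 10, 21 and 28, against -0.50, -0.44 and -0.12 in wild-type clones 15, 20 and 23. RGS2 gave -0.04, -1.46 and -0.91 in the same knockout clones, against 0.28, 0.05 and 1.05 in the same wild-type clones. In both genes 1 knockout clone lay close to the wild-type clones, clone 21 for KLF4 and clone 10 for RGS2. SGK1, a serum-induced kinase (0.98 ± 0.41, other probes 0.13 to 0.79), JUNB (0.40 ± 0.15) and MRTFB, a coactivator of serum response factor (-0.36 ± 0.17), followed. None of the 5 passed, with limma adjusted p from 0.457 to 0.626. Single clones carried much of 3 of these differences, which were 0.41 for SGK1 without knockout clone 28, and 0.25 for JUNB and -0.14 for MRTFB without knockout clone 10.

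In HT1080 the largest differences of this kind were those of PTGS2, the inducible cyclooxygenase (-1.42 ± 0.36, SE, and -1.01 on its other probe), and PHLDA1 (-0.96 ± 0.36, but 0.11 on its other probe). PTGS2 gave -0.60 and -0.39 in knockout clones 8 and 21, against 1.46 and 0.40 in wild-type clones 2 and 9. NFIL3, a transcriptional repressor with a role in the circadian clock (-0.52 ± 0.16), RXRG, a receptor of the family with which NR4A1 and NR4A2 pair (0.35 ± 0.17, and -0.15 and 0.03 on its other probes), and SGK1 (0.34 ± 0.17) followed. None passed, with a limma adjusted p of 0.885 for all 5. All 5 moved by over 1.5 times with 1 clone left out. Without wild-type clone 2 the difference was -0.89 for PTGS2, -1.48 for PHLDA1 and 0.55 for SGK1. Without wild-type clone 9 it was -0.44 for PHLDA1, -0.33 for NFIL3 and 0.13 for SGK1, while RXRG gave 0.15 without knockout clone 21 and 0.56 without knockout clone 8.

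JUNB, an AP-1 partner of FOS, was the 1 gene among 60 of the 4 lists (1.67%) whose clone means parted by genotype in opposite directions in HCT116 and HT1080, as did 794 of 20046 genes (3.96%). The share in the lists was not above that of all genes. It gave 0.52, 0.02 and 0.14 in HCT116 knockout clones 10, 21 and 28, against -0.42, -0.10 and 0.00 in wild-type clones 15, 20 and 23. In HT1080 it gave -0.13 and -0.14 in knockout clones 8 and 21, against 0.20 and 0.14 in wild-type clones 2 and 9. The difference between lines was 0.70 ± 0.22 (SE, limma adjusted p = 0.511 over genes), so it did not pass, and in HCT116 clones 21 and 23 lay next to each other.

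**Figure D5:**
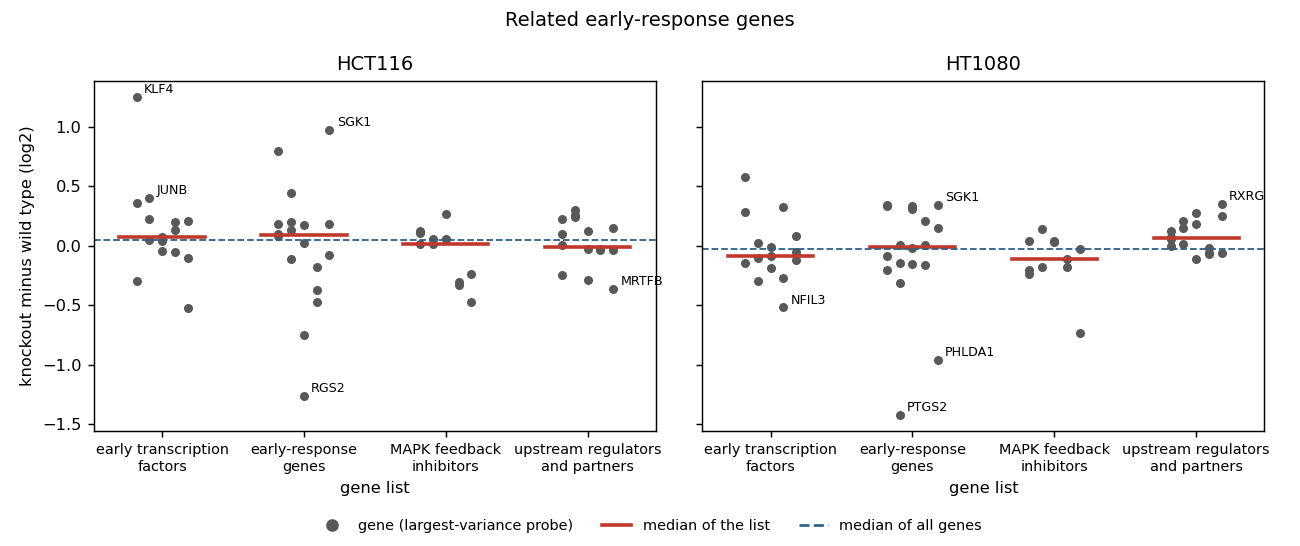
Knockout minus wild type on the log2 scale (y axis) for the genes of 4 early-response lists (x axis) in HCT116 and HT1080, 1 point a gene. Red lines mark the list medians and the dashed line the median of all genes (0.05 in HCT116, -0.03 in HT1080). List medians lie between -0.01 and 0.09 in HCT116 and between -0.11 and 0.06 in HT1080.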

How the data were processed

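Total RNA of 24 samples was measured on Illumina arrays. Per the labels' protocols, QIAGEN RNeasy columns were used for the extraction and an Ambion MessageAmp kit for biotin labelling. The authors deposited 1 value table on a log scale, taken here as log2, with the median of each probe within a line at 0 (largest absolute value 5e-07). The background correction, the normalization between arrays and the programs used are not given in the sources used here.

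Of 47323 probes, 30113 carried 1 gene symbol, 8 several and 17202 none. Symbols of 30074 probes were updated through Entrez identifiers with RefSeq names (GRCh38.p14). In ARPE-19, 4 probes had missing values and were not tested. The 2 arrays of a clone were averaged, and knockout was compared with wild type in each line with limma 3.58.1 (R 4.3.3, lmFit with eBayes, two-sided, p adjusted by Benjamini-Hochberg across all probes, threshold 0.05). The difference between lines was an interaction term over 10 clones. Differences between clones within a genotype were a moderated F test over arrays, whose residual is the spread between the 2 arrays of a clone. The fits were tested on simulated data with shifts larger than any member difference, which does not show how often changes of the sizes seen here would pass.

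All member probes were named. From the lists, the genes past the threshold and up to 5 per line with the largest difference and no overlap of clones were named, and the 5 genes most correlated with NR4A2. The members, the lists and the tests were chosen with earlier results of these data known. Alternatives left out each clone, used 1 array per clone, a replicate block, centred arrays, other probe rules, a robust prior and 1 fit of both lines.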

Additional observations from a re-analysis of the deposited data

Results flagged for a closer look

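For NR4A2 every knockout clone lay above every wild-type clone in HCT116 and every knockout clone below every wild-type clone in HT1080, so the change in HCT116 minus the change in HT1080 was 1.95 for probe 1 and 1.72 for probe 2. The gene was chosen for this pattern, and the values are a description.

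For JUNB the clones parted in opposite directions in the same way, and the change in HCT116 minus the change in HT1080 was 0.70 ± 0.22 (SE), with a limma adjusted p of 0.511. Of 20046 genes in HCT116, 2360 had all knockout clones above all wild-type clones and 717 had them all below. In HT1080 these numbers were 2848 and 4514, and 794 genes (3.96%) parted in opposite directions in the 2 lines.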

How the results depend on the processing

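NR4A2 kept its sign in HCT116 and HT1080 under all alternatives run. Its clones did not overlap between genotypes in either line, so leaving out a clone could not turn the sign. These contrasts served to choose NR4A2, so its signs and its passes by setting are a description. Its HCT116 difference lay between 0.94 and 1.10 for probe 1 and between 0.71 and 0.94 for probe 2, and its HT1080 difference between -1.06 and -0.74 for probe 1 and at -0.72 or lower for probe 2. In HCT116 the sign of EGR1 turned in 3 of 15 alternatives (from -0.59 to 0.21) and that of FOS in 1 of 15 (from -0.49 to 0.02). In all, 7 of 14 member probes took the other sign under at least 1 alternative in HCT116, 9 of 14 in HT1080 and 6 of 14 in ARPE-19, where NR4A2 probe 1 was among them. For NR4A3 probe 3 in HCT116 this was 5 of 13 alternatives. Past the threshold in HCT116 were 2 NR4A2 probes, but 1 with centred arrays, with second arrays alone or without wild-type clone 15. The count was 0 by the mean of probes, or without wild-type clone 20 or 23 or knockout clone 10 or 28. The largest-variance rule keeps 1 probe per gene, and that probe of NR4A2 passed.

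Counts of probes past the threshold moved more, and the cause was not tested. In HCT116, 15 probes passed between genotypes, against 25 with first arrays alone, 8 with centred arrays, 0 without wild-type clones 15 and 20 (added after seeing the data), 3 by the largest-variance probe, 0 by the mean of a gene's probes (fewer rows) and 0 to 164 with 1 clone left out, 164 of them without knockout clone 21 and 0 without wild-type clone 23. In HT1080, 2 passed, against 12 with first and 9 with second arrays alone, 5 with a robust prior, 28 in 1 fit of both lines, 0 by the mean of probes, and 0 (without knockout clone 8) to 121 (without wild-type clone 9). With array number and clone as a replicate block, 221 probes passed in HCT116 and 89 in HT1080, both NR4A2 probes among them in each line. That fit took single arrays, with 1 clone correlation for all probes (0.24 in HCT116 and 0.22 in HT1080). Arrays of a clone thus counted as partly independent, which can raise the number passing. The array numbers did not pair the samples, since their deviations correlated between -0.16 and 0.15 in HCT116 and between -0.04 and 0.12 in HT1080.

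In ARPE-19 the 139 became 60 and 27 by the probe rules and 122 to 379 with 1 sample left out, most without the parental culture. The 14 for the difference between lines became 9 by the mean of probes and 12 to 115 with 1 clone left out, most without HT1080 wild-type clone 9. Between clones of a genotype, the 4981 in HCT116 became 2862 without wild-type clones 15 and 20 and 3217 (without clone 15) to 4929 with 1 clone left out, and the 4138 in HT1080 became 1091 (without wild-type clone 9) to 3803. Signal over background is unknown in centred values, and 2 or 3 clones a genotype limit the precision.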
